A study of Caenorhabditis elegans with 45 samples.

Results

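The G20C strain of Caenorhabditis elegans carries let-7a with a single base changed at position 20, and it was compared here with wild type by small RNA sequencing. The comparison used 6 of the 45 libraries of the series, 3 of G20C and 3 of wild type, selected by their genotype labels. The other 39 libraries came from 13 further single-base mutants of let-7a and entered the statistical fit. All RNA was from whole animals at the mid L4 larval stage, fed for 45 hours at 20 °C.

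Wild type was strain VT1367, whose label gives the transgene maIs105 on chromosome V. G20C was strain VT3829, with the same maIs105 and the allele let-7(ma452) on chromosome X. maIs105 is a col-19::gfp reporter of adult hypodermal fate, so wild type and mutant both carried a reporter transgene. Neither genotype carried mnDp1, which stands in the labels of 6 of the 13 other mutants. These were G11U, G12U, U13A, U14A, G15A and U16G. In the mutant name, G is the base of wild type, 20 is its place from the 5′ end, and C is the base that replaces it. Mature let-7 is annotated in WBcel235 on chromosome X from 14744234 to 14744255 on the minus strand, within a precursor from 14744173 to 14744271. The base changed in G20C is at 14744236, in the 3′ part of the mature miRNA and outside the seed. No label says whether replicates A, B and C came from separate cultures, so the p-values below measure the spread between these libraries, which may be technical.

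let-7 was found as a regulator of developmental timing in this worm. It accumulates late in larval life and represses targets such as lin-41, which allows seam cells of the skin to take their adult fate. A miRNA binds its targets mainly through the seed near its 5′ end, and bases nearer the 3′ end can add to the pairing. lin-58 (the gene of miR-48), mir-84 and mir-241 share the let-7 seed and act earlier in the larval sequence, partly through hbl-1. They differ from let-7 mainly outside the seed.

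The 6 libraries held between 1319030 and 2158302 miRNA counts, inside the range of 1009758 to 3574420 across the series. Across 130 miRNAs, each of the 6 resembled the median library of the series, with r of 0.991 or higher on the log2 scale as a description. 1 library of another mutant, U9G replicate B, stood apart at r = 0.867, where the next lowest library had 0.981. It shares the estimate of the spread, so the main results and several others are also given without it. miRNA counts made up 83.6%, 85.0% and 75.2% of mapped reads in wild-type replicates A, B and C and 86.0%, 70.7% and 82.4% in those of G20C. These shares overlapped (difference of the means -1.56 percentage points, exact two-sided permutation p = 0.7, n = 3 each).

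The label of the strain was checked in the let-7 reads, which the authors counted separately in the mutant and the wild-type form. The mutant form had 174971, 161213 and 160260 reads in G20C replicates A, B and C. The wild-type form had 163, 125 and 172 reads in the same libraries. Almost all let-7 of this strain was therefore counted in the mutant form. The wild-type form was 0.0931% of let-7 reads in replicate A (Wilson 95% interval 0.0798% to 0.108%), 0.0775% in B (0.0650% to 0.0923%) and 0.107% in C (0.0923% to 0.124%). These intervals cover counting error only. The mean of 0.0926% ± 0.0149 (SD, n = 3) was the fourth lowest of the 14 mutants. In reads per 1000000 miRNA reads, the wild-type form was at 73.3 ± 10.4 (SD, n = 3) in G20C. This was above the means of the other 8 mutants whose share was under 1%, which were 11.9 to 46.3. By library there was overlap, with 75.9, 61.9 and 82.1 in G20C replicates A, B and C. U9G replicates A, B and C had 105, 6.43 and 5.99, and G15A replicate B had 68.8. The share is taken over all let-7 reads, which were the most abundant in G20C. Wild-type libraries listed 70780, 38505 and 35166 reads of their own form and 0 of a mutant form, but the mutant form searched for in wild type is not stated.

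let-7 reads were about 3 times as abundant in G20C as in wild type. It stood at 90156, 85920 and 81473 normalised counts per 1000000 (CPM) in G20C replicates A, B and C. In wild type it stood at 35086, 21761 and 27660 normalised CPM. The lowest G20C library was thus above the highest wild-type library by more than the whole range of wild type. Wild type varied more, with an SD of 0.345 on the log2 scale against 0.0731 in G20C (n = 3 each). The means were 85850 ± 4342 and 28169 ± 6677 normalised CPM (SD, n = 3 each). On the log2 scale let-7 rose by 1.61 (SE 0.252, 95% interval 1.09 to 2.12, edgeR adjusted p = 3.71e-05), and the 3 G20C libraries were each higher than all wild-type libraries. With U9G replicate B left out of the fit, the rise was 1.66 (SE 0.179, edgeR adjusted p = 1.39e-08). The exact two-sided permutation test over the 6 libraries gave p = 0.1, the smallest that 3 against 3 allows. In whole animals, more cells that make let-7 and more let-7 per cell cannot be told apart. Each strain was also counted in its own let-7 form. Whether these forms are ligated, amplified and assigned alike was not tested.

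The same rise was present in shares of each library's own total, with no further scaling between libraries. let-7 was 8.15%, 7.98% and 7.65% of all miRNA reads in G20C replicates A, B and C. It was 3.28%, 2.15% and 2.67% of them in wild type. Per 1000000 mapped reads of any kind, let-7 was at 63177 ± 6816 in G20C and 21913 ± 4838 in wild type (SD, n = 3 each), with no overlap. The mapped share of all reads also did not overlap, at 62.1% to 64.3% in G20C and 60.3% to 61.7% in wild type, and its part in the result was not tested. With both forms of let-7 added, the log2 fold change was 1.61 (edgeR adjusted p = 3.41e-05).

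The deposited miRNA table has a let-7 row of its own, which held 210834, 198591 and 202404 reads in G20C and 91281, 49294 and 49578 in wild type. It exceeded the count of the encoded form by a factor of 1.20 to 1.26 in G20C and 1.28 to 1.41 in wild type. These factors did not overlap between the strains. With that row in place of the encoded form, let-7 was still higher in G20C (log2 difference 1.499, edgeR adjusted p = 8.38e-05).

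G20C had the highest mean let-7 level of the 15 genotypes. G12U was next at 65479 ± 7484 normalised CPM, followed by U13A at 43158 ± 5787 (SD, n = 3 each). G12U and U13A carried mnDp1 in their labels and G20C did not, and the part of mnDp1 in these differences was not tested. G20C was not past the threshold against G12U (log2 difference 0.39, SE 0.247, edgeR adjusted p = 0.999), although the lowest G20C library was above the highest G12U library at 72493. Against U13A the log2 difference was 0.99 (SE 0.249, edgeR adjusted p = 0.0433). That call was lost when G20C replicate B (edgeR adjusted p = 0.0699), U13A replicate A (edgeR adjusted p = 0.116) or U13A replicate C (edgeR adjusted p = 0.140) was left out. Against each of the other 11 mutants it lay between 1.54 and 2.73, with edgeR adjusted p-values of 8.36e-05 or lower. These 13 comparisons share the G20C libraries. Without U9G replicate B, which had 51760 normalised CPM of let-7 where the other 2 libraries of its strain had 19247 and 17830, the log2 difference from U9G was 2.27 in place of 1.54. The edgeR adjusted p was then 0.291 against G12U and 6.98e-05 against U13A.

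These levels count the form each strain encodes, but in 5 other mutants the wild-type form made up more than 1% of let-7 reads, from 7.31% in U21A to 35.2% in G11U. With both forms added, the G12U libraries stood at 74724, 81996 and 64634 normalised CPM and overlapped those of G20C, at 90001, 85759 and 81344. The U13A libraries, at 51511, 57422 and 44076, were all below those of G20C. The log2 difference of G20C was then 0.22 from G12U (SE 0.245, edgeR adjusted p = 0.999) and 0.75 from U13A (SE 0.247, edgeR adjusted p = 0.299), neither past the threshold. It was 2.11 from G11U (SE 0.256, edgeR adjusted p = 1.56e-07), in place of 2.73, and 2.08 from U22A (SE 0.255, edgeR adjusted p = 2.07e-07), in place of 2.44. The other 9 comparisons kept their calls with both forms added.

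**Figure D1:**
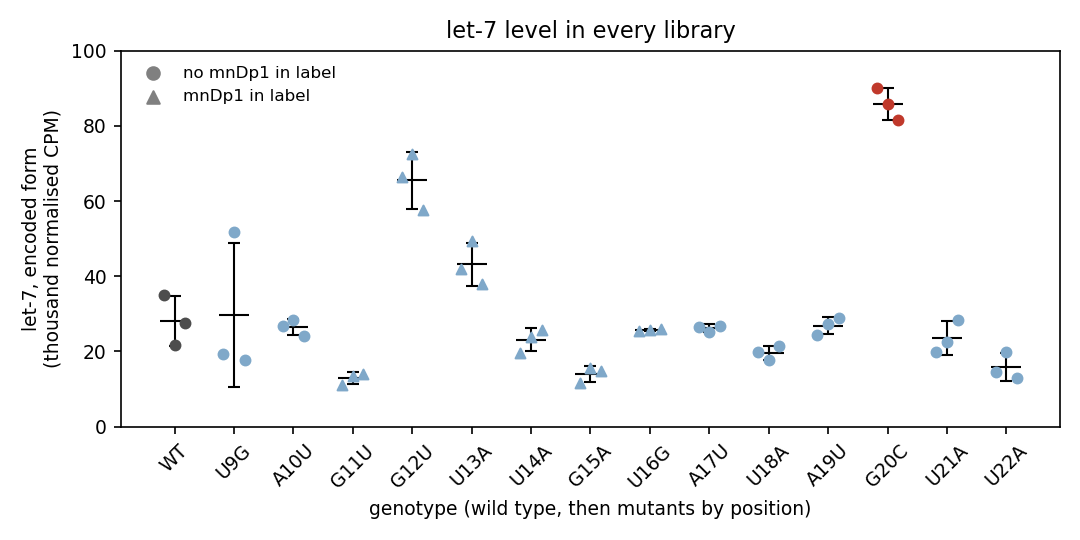
let-7 reads of the form each genotype encodes, as normalised CPM divided by 1000 (vertical axis, from 0), for every library of the 15 genotypes. Points are libraries A, B and C from left to right, bars are the mean and SD (n = 3), and triangles mark strains with mnDp1 in their label. The 3 G20C libraries lie between 81473 and 90156 normalised CPM, above every other library shown.

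The mutants of the neighbouring bases did not show this level. A19U stood at 24349, 27214 and 28860 normalised CPM, and U21A at 19871, 22388 and 28472. Each of these libraries was below every G20C library, and all but the lowest of U21A were inside the wild-type range. The wild-type form was 0.133% ± 0.0108 of let-7 reads in A19U and 7.31% ± 0.511 in U21A (SD, n = 3 each), and its part in these levels was not tested. The log2 difference of G20C was 1.68 from A19U (SE 0.253, edgeR adjusted p = 1.67e-05) and 1.86 from U21A (SE 0.254, edgeR adjusted p = 2.22e-06). Adjusted over these 2 comparisons of let-7, the edgeR p-values were 1.28e-07 and 3.42e-08. A19U, like G20C, carried no mnDp1, and nor did U21A.

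A contrast that uses no wild-type library gave a similar size. let-7 in G20C was above the mean of the 13 other mutants by a log2 difference of 1.80 (SE 0.151, edgeR adjusted p = 1.29e-11). let-7 was the only miRNA of 130 past the threshold there, or 0.769%. Without G20C replicate A, mir-239.2 also passed, at a log2 difference of -2.51 (SE 0.570, edgeR adjusted p = 0.0071). Above the mean of the 7 other mutants without mnDp1, the log2 difference was 1.87 (SE 0.160, edgeR adjusted p = 2.53e-11). let-7 was also the only call in that comparison, and in those with A19U and U21A, again 0.769% of the 130 miRNAs tested in each. Of the 129 other miRNAs, some did pass against other single mutants. There were 15 against U9G, 3 against A10U and 2 each against U18A, G15A and G11U. None passed against G12U, U13A, A17U, U16G, U14A or U22A. Without U9G replicate B, 1 passed against U9G, 8 against A10U and 14 against G15A. In that fit 3 passed against U18A, 3 against G11U and 1 against U16G.

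let-7 moved up among the miRNAs with counts. Of 257 miRNA genes, 61 were listed at 0 in every library, among them lin-4, mir-1, mir-52 and mir-80. Ranks and shares therefore do not cover these genes. By read count it ranked 7, 19 and 11 in wild-type replicates A, B and C. It ranked 4, 3 and 3 in those of G20C. Read counts of different miRNAs also depend on how each is ligated and amplified, so the ranks describe libraries rather than amounts of RNA. The 10 miRNAs with the highest shares in wild type, let-7 included, held 63.7% to 66.6% of counts in wild type and 66.1% to 68.9% in G20C.

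Among these 10, let-7 was the only one whose 3 G20C libraries lay above wild type. mir-70 had the largest share in wild type, at 19.2%, 19.9% and 16.3% in replicates A, B and C, against 17.7%, 10.2% and 15.5% in G20C. mir-58.1, of the bantam-related family, held 15.2%, 15.1% and 20.1% in wild type. In G20C it held 12.2%, 20.9% and 20.8%. Both miRNAs overlapped between the strains, and their log2 fold changes were -0.31 (SE 0.298) and 0.13 (SE 0.221). mir-82, mir-72, mir-51, mir-228 and mir-66 overlapped as well, with log2 fold changes between -0.14 and 0.21. mir-55 was lower in every G20C library, as described further on.

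**Figure D2:**
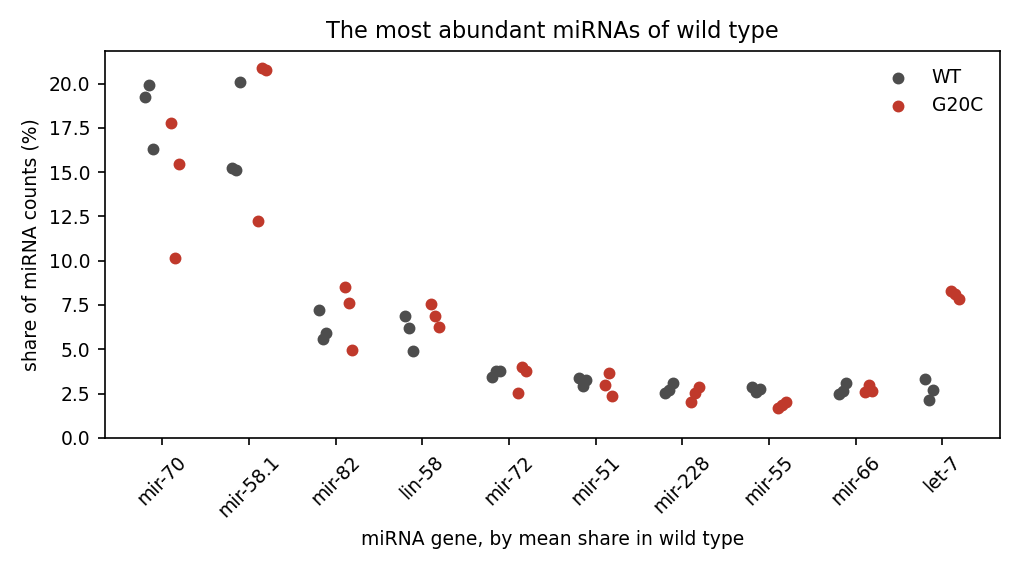
Share of all miRNA counts in percent (vertical axis, from 0) for the 10 miRNAs with the highest mean share in wild type, in each of the 3 wild-type libraries (dark) and the 3 G20C libraries (red). let-7 lies between 7.81% and 8.29% of counts in G20C and between 2.16% and 3.31% in wild type when its encoded form replaces the let-7 row in the totals.

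The other members of the let-7 family did not pass the threshold. 6 were tested besides let-7, of which 3 had a log2 fold change above 0 and 3 below it, with a median of -0.07. Over all 129 other miRNAs tested, 59 were above 0 and 70 below, with a median of -0.03. This balance turned in the fit without U9G replicate B, which had 72 above and 61 below. All 6 overlapped between the strains. lin-58, the most abundant of them, stood at 72759, 62408 and 50343 normalised CPM in wild type. In G20C it stood at 82302, 72769 and 65306. G20C replicate A was above all of wild type, B was level with the highest wild-type library, and C lay inside the wild-type range. On the log2 scale lin-58 differed by 0.25 (95% interval -0.72 to 1.21, edgeR adjusted p = 0.99). Without U9G replicate B the interval was narrower, at -0.10 to 0.71 around 0.30.

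mir-84 was at 15444, 12645 and 11712 normalised CPM in wild type and 12192, 12165 and 11703 in G20C. Its G20C libraries were within a narrow band at the low end of wild type, and its log2 fold change was -0.14 (95% interval -0.65 to 0.36). mir-241, which is encoded next to lin-58 on chromosome V, was at 4469, 3615 and 2542 in wild type and 4573, 4418 and 3660 in G20C. Its log2 fold change was 0.25 (95% interval -0.38 to 0.88). Without U9G replicate B, the interval was -0.39 to 0.21 for mir-84 and -0.13 to 0.74 for mir-241. In that fit the upper bounds of these sister miRNAs were below the lower bound of let-7, which was 1.29.

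The 3 less abundant members of the family were further below let-7 in level. mir-793 averaged 878 ± 193 normalised CPM in wild type and 884 ± 21.7 in G20C (SD, n = 3 each). mir-794 averaged 157 ± 23.2 and 135 ± 31.8. mir-795, a neighbour of mir-794 on chromosome I, averaged 454 ± 20.7 and 380 ± 74.0. Their log2 fold changes were 0.01, -0.22 and -0.26.

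let-7 took a larger part of the reads of its own family in G20C. It was 27.1%, 21.3% and 29.6% of the family's reads in wild-type replicates A, B and C. It was 47.3%, 48.6% and 49.8% in those of G20C. In wild type, lin-58 held the largest part, between 53.8% and 61.2%, and in G20C it held 39.9% to 43.2%. let-7 reads equalled 0.379, 0.277 and 0.428 times the summed reads of lin-58, mir-84 and mir-241 in wild type, and 0.910, 0.962 and 1.01 times in G20C. The mean log2 ratio was -1.49 ± 0.325 in wild type and -0.06 ± 0.0752 in G20C (SD, n = 3 each). The difference of 1.43 had an exact two-sided permutation p of 0.1, the smallest possible, and the libraries did not overlap. This ratio is formed within each library and needs no scaling between them.

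**Figure D3:**
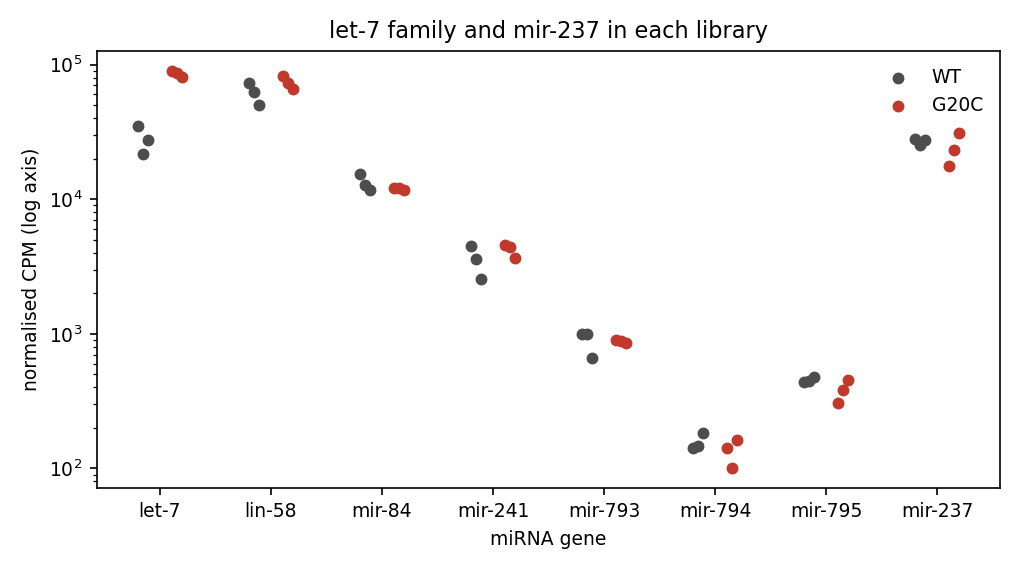
Normalised CPM on a log axis of let-7, the 6 other let-7 family members and mir-237 in each wild-type (dark) and G20C (red) library, with replicates A, B and C from left to right. let-7 is the only miRNA of the 8 for which the 3 G20C points lie wholly above the 3 wild-type points.

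The lin-4 family also acts in larval timing. lin-4 itself was listed at 0 in every library of the series and could not be compared. mir-237, which shares the lin-4 seed, stood at 27808, 25306 and 27483 normalised CPM in wild type. In G20C it ranged from 17754 in replicate A to 31063 in replicate C, on both sides of wild type. Its log2 fold change was -0.16 (95% interval -0.56 to 0.24, edgeR adjusted p = 0.99).

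No miRNA other than let-7 passed the threshold between G20C and wild type. let-7 was 1 of 130 miRNAs tested, so that 0.769% were called. Among the 129 others, 0 had an unadjusted p under 0.05 and the smallest edgeR adjusted p was 0.99. That is fewer than chance alone would give at this cut, so the main fit may be too cautious to find small changes. DESeq2 also called 0, and 3 of its unadjusted p-values were under 0.05. In the edgeR fit that left out U9G replicate B, 0 of 133 were called and 4 unadjusted p-values were under 0.05. The quartiles of the 129 log2 fold changes were -0.24 and 0.18, and 103 of the 129 were smaller than 0.5 in size. When 30 of 130 miRNAs were given a log2 change of 2 in simulated G20C libraries, the same edgeR procedure recovered 27 of them and made 1 false call. That change was larger than the one of let-7, and the simulated libraries held no difference by replicate letter. Smaller changes were not simulated, so the simulation does not show how many of them would be missed.

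**Figure D4:**
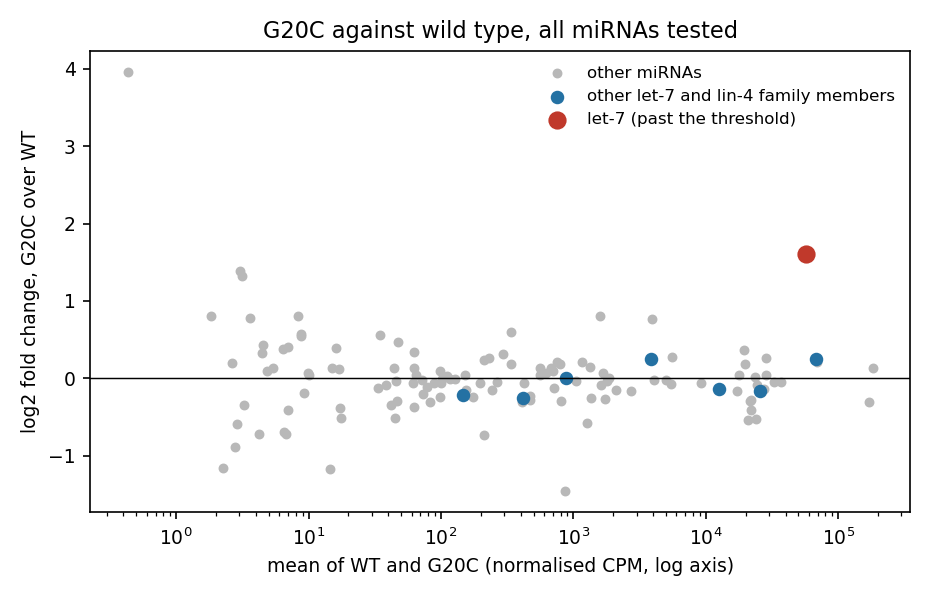
Log2 fold change of G20C over wild type (vertical axis) against the mean normalised CPM of the wild-type and G20C means (log axis) for the 130 miRNAs tested, with let-7 in red and other let-7 and lin-4 family members in blue. let-7 is at 1.61, and the 43 other miRNAs that reach 1000 normalised CPM in either strain lie between -1.46 and 0.80. The point at the upper left is mir-8200, with 0 reads in wild type and 5 in G20C.

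In 16 of the 130 miRNAs, or 12.3%, the 3 G20C libraries did not overlap the 3 wild-type libraries. The exact two-sided permutation p of such a separation is 0.1, so a share near this one would arise without any strain difference. Besides let-7, 7 lay above wild type and 8 below. The clearest abundant case was mir-55, a member of the miR-100-related mir-51 family. It was at 30430, 26301 and 28232 normalised CPM in wild type and 18265, 19620 and 21216 in G20C. The gap between the strains was wider than the range within each. Its log2 fold change of -0.52 (SE 0.274, 95% interval -1.08 to 0.03) did not pass the threshold (edgeR adjusted p = 0.99).

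mir-61, a miRNA known from vulval cell fate, was at 24020, 26300 and 24929 normalised CPM in wild type and 17026, 15662 and 23878 in G20C. Replicate C of G20C almost reached wild type. The log2 fold change was -0.41 (SE 0.211). mir-229 was at 1484 ± 185 in wild type and 1246 ± 95.3 in G20C (SD, n = 3 each), a log2 fold change of -0.25 (SE 0.133). Neither passed after adjustment (edgeR adjusted p = 0.99 for both).

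mir-239.2, of a family linked to stress responses and lifespan, rested on few reads. Wild-type replicates A, B and C had 34, 57 and 14 reads, and those of G20C had 40, 5 and 7. G20C replicate A thus lay among the wild-type libraries and the other 2 below them. Over all 3 replicates its log2 difference was -1.17 (SE 0.580, edgeR adjusted p = 0.99). In the edgeR fit without G20C replicate A it was -2.62 (SE 0.640, edgeR adjusted p = 0.0169). Leaving out each of the 6 libraries in turn gave no other call besides let-7. mir-239.1, its relative, averaged 118 ± 5.10 and 117 ± 38.6 normalised CPM (SD, n = 3 each). mir-8212 had 5, 8 and 3 reads in wild type and 1, 3 and 4 in G20C and did not pass the threshold (edgeR adjusted p = 0.99).

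Of the miRNAs with a positive log2 fold change, the 5 with the smallest unadjusted p were mir-4920, mir-4937, mir-75, mir-251 and mir-784. mir-75 was the most abundant, at 243, 236 and 330 normalised CPM in wild type and 370, 536 and 314 in G20C. Its lowest G20C library was within wild type, and it differed by 0.59 on the log2 scale (SE 0.368, edgeR adjusted p = 0.99). mir-251 was at 29.7, 22.0 and 33.0 in wild type and 35.04, 51.2 and 38.1 in G20C, a log2 fold change of 0.55 (SE 0.380). mir-784 had a log2 fold change of 0.47 (SE 0.364). mir-4920 rested on 9 to 11 reads per wild-type library and mir-4937 on 0 to 5, so a few reads set their values.

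Groups of miRNAs that mark stages and tissues were examined for other differences between the strains. The mir-35 family is made in oocytes and embryos. Its 7 tested members, mir-35 to mir-41, summed to 12831, 12521 and 13350 normalised CPM in wild type and 12194, 11381 and 14154 in G20C. 0 of the 7 passed the threshold and their median log2 fold change was -0.03. mir-42 was listed at 0 in all libraries. Among tissue markers, mir-228, found in glia, had a log2 fold change of -0.14 (SE 0.387, or 0.172 without U9G replicate B). lsy-6, a miRNA of a single neuron class, had -0.08 (SE 0.236). mir-57, expressed in posterior cells, was at 15036, 27830 and 31040 in wild type and 13646, 15145 and 22265 in G20C, and had -0.53 (SE 0.324). Without U9G replicate B it had -0.48 (SE 0.224, edgeR adjusted p = 0.639). 0 of these 3 passed the threshold. mir-1 of muscle and mir-124 of sensory neurons were listed at 0 in every library, so those tissues could not be examined by them.

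In the mir-51 family, 5 of 6 members were tested and all 5 had a log2 fold change below 0, with a median of -0.15. None passed the threshold in edgeR. With U9G replicate B left out, 3 of the 5 were below 0. mir-51 was at 36069, 29419 and 33641 normalised CPM in wild type and 32747, 38688 and 24845 in G20C. mir-52 was listed at 0 throughout. In the list used for the mir-58 family, 4 miRNAs were tested and 3 were above 0, with a median of 0.17, and none passed. mir-80 was listed at 0 in all libraries, and no row carried the name mir-1834. mir-58.2 was tested and did not pass, but it was not on this list and is not in these counts.

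miRNA genes near let-7 on chromosome X were examined because the strain was altered at that locus. 10 are annotated within 1000000 bases of let-7, of which 7 were tested, 2 had too few counts and 1 was listed at 0. 0 of the 7 passed the threshold, 5 had a log2 fold change above 0 and 2 below, and their median was 0.07. mir-47, the most abundant, was at 14439, 21902 and 18870 normalised CPM in wild type and 23022, 18137 and 21416 in G20C. mir-1829.2 was the 1 of 7 whose libraries did not overlap, which compares with 12.3% of all miRNAs tested, and it rested on 11 to 23 reads per library. It was at 5.95, 6.78 and 8.65 in wild type and 11.9, 10.1 and 9.66 in G20C, or 0.58 higher on the log2 scale (SE 0.580, edgeR adjusted p = 0.99). It is 1 of 3 numbered copies of mir-1829 there, and how reads shared by copies were assigned is not stated. The other 2 copies had -0.06 and -0.29.

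Some miRNAs differed by replicate letter, a pattern seen in the data and then tested on the same data. mir-41, an embryonic miRNA of the mir-35 family, was at 129, 33.9 and 28.3 normalised CPM in wild-type replicates A, B and C and at 136, 41.0 and 21.4 in those of G20C. Its level in replicate A was thus over 3 times that in B and C in both strains, while the strain means were 63.7 and 66.1. mir-81, of the bantam-related family, was at 25979, 29492 and 22220 in wild type and 49295, 26921 and 17043 in G20C, lowest in C in both strains.

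Across all 45 libraries, edgeR's F-test of the letter, with genotype in the model, passed the threshold for 43 of 130 miRNAs, or 33.1%, and for 70, or 53.8%, without U9G replicate B. mir-81 had the smallest adjusted p (3.38e-08), with log2 differences of -0.39 for B and -1.08 for C from A. For mir-41 these were -1.18 and -1.30 (edgeR adjusted p = 2.29e-05). let-7 did not pass (edgeR adjusted p = 0.314). The labels do not say what the letters stand for.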

How the data were processed

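Read counts per miRNA gene and counts of reads per library were used as the authors deposited them. Per the submitters' processing notes, cutadapt 1.9, Bowtie2 2.3.4.3, Subread 1.6.2 and featureCounts were used. Their settings, the genome build and the rule assigning reads to a let-7 form are not given in the sources used here. 4 further columns of the library table were not used. Wilson intervals cover counting error only, since the counts carry no molecular identifiers, while edgeR intervals rest on the spread between libraries. The library table lists U9G replicate C with the mapped and miRNA reads of replicate A, 1678705 miRNA reads where its counts sum to 2336900, so count sums were used and U9G shares of mapped reads were not.

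The count of the let-7 form each genotype encodes replaced the let-7 row. Shares of miRNA reads use the sums of the miRNA table. edgeR 4.0.16 in R 4.3.3 gave the main test, the quasi-likelihood test, on counts filtered by filterByExpr and scaled by TMM, with all 45 libraries in 1 fit and 1 coefficient per genotype. P-values were adjusted by Benjamini-Hochberg over the 130 miRNAs tested, with a threshold of 0.05. Normalised CPM are counts per 1000000 after TMM scaling. Standard errors came from the F statistic. Exact permutation tests used SciPy 1.17.1. DESeq2 1.42.0 was an alternative. The edgeR script was tested on simulated data. Coordinates were matched by gene ID to the WBcel235 annotation, for all 257 genes of the table, of which 61 were at 0 in every library.

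miRNAs named are let-7, the let-7 and lin-4 families, tissue markers, the 10 most abundant in wild type, the 5 with the smallest p in each direction, and members of other lists whose groups did not overlap. mir-70, mir-58.1, mir-82, mir-72, mir-51, mir-228 and mir-66 enter by abundance. mir-8200, mir-239.1, mir-47, mir-41, mir-81 and the other mir-1829 copies were named after their values were seen. The comparison and the lists were chosen with earlier results of these data known. The mature sequences were not used here.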

Additional observations from a re-analysis of the deposited data

Results flagged for a closer look

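The let-7 level of G20C is listed for its change from wild type. This change differed from the means of other mutants and from A19U and U21A, in a test of the difference itself. Wild type drops out of each difference. The log2 difference was 1.80 from the mean of the 13 other mutants and 1.87 from the mean of the 7 without mnDp1. It was 1.68 from A19U and 1.86 from U21A. The edgeR adjusted p of these 4 differences was 1.67e-05 or lower. Not all other mutants differed in this way. The log2 difference from G12U was 0.39, or 0.22 with both forms added (edgeR adjusted p = 0.999 for both). From U13A it was 0.99 (edgeR adjusted p = 0.0433), or 0.75 with both forms added (edgeR adjusted p = 0.299).

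The strain means of the 8 mutants without mnDp1 were also searched for a strain far from the others. The let-7 mean of G20C, at 16.4 on the log2 scale of normalised CPM, lay apart from the other 7. Its gap to the next strain was 0.683 of the whole range, above the critical value of Dixon's test for 8 values. The 6 mutants with mnDp1 were not in this search. Among them were G12U at 15.99 and U13A at 15.39, the next highest means after G20C. The search therefore does not set G20C apart from all other mutants. The same search of the wild-type-form share did not single out G20C. Chance marks about 1 in 20 such groups.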

How the results depend on the processing

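Against wild type, let-7 kept its direction and its call under all 16 alternatives, with log2 fold changes from 1.499 to 1.70 under other scalings, filters, tests and read counts. They were 1.49 to 1.87 with 1 of the 6 libraries left out. The highest edgeR adjusted p was 0.00855, in a fit of only the 6 libraries. The comparisons with A19U, U21A and both means of other mutants kept their calls too, from 1.54 to 2.302. Of the other 11 mutants, tried without U9G replicate B, with both forms added and with each library of the pair left out, U13A lost its call: at 0.75 with both forms, and in 3 of 6 leave-outs, which ranged from 1.01 to 1.21. G12U stayed uncalled and the remaining 9 stayed called.

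The replicate letter as a block gave 1.59 for let-7 and added no call among other miRNAs. Deviations of same-letter libraries of wild type and G20C correlated at 0.531, -0.339 and 0.405 over miRNAs for A, B and C. The letters were therefore not used as pairs, although the letter passed a test for 43 of 130 miRNAs over the series, and G20C replicate B was closest to wild-type replicate C.

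The number of other miRNAs called was 0 to 1 over leave-outs, against wild type and against the 13 other mutants, the 1 being mir-239.2 without G20C replicate A. The difference in the miRNA share of mapped reads turned to 0.887 points with all reads as denominator, and ranged from -4.70 to 2.92 over leave-outs.

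Among 27 other named miRNAs, 377 of 398 values kept direction and side. Signs turned for mir-793 (-0.036, total counts), for lsy-6 (0.016), mir-72 (0.045) and mir-51 (0.059) without a filter, and for mir-51 (0.0093) with a minimum of 10 counts. Over leave-outs, U9G replicate B included, mir-84 ranged from -0.17 to 0.058, mir-793 from -0.11 to 0.18, mir-237 from -0.31 to 0.059, lsy-6 from -0.21 to 0.12, mir-228 from -0.17 to 0.027, mir-72 from -0.14 to 0.17 and mir-51 from -0.16 to 0.19. None of these was called. The cause of these turns was not tested. Depth limits miRNAs with few reads, such as mir-8212, which had 1 to 8 per library.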

Other observations

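Over the 43 other miRNAs that reached 1000 normalised CPM in either strain, the median SD of log2 values over 3 libraries was 0.193 in wild type and 0.252 in G20C, and it was larger in G20C for 25 of them. For let-7 it was larger in wild type.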
